A study of Homo sapiens with 6 samples.

Results

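H3K4me1 regions far from H3K27ac are described here in Calu-3, a human cell line grown from a lung adenocarcinoma that keeps airway epithelial features. The members were chosen by the called positions of both marks alone. A member is a called H3K4me1 region with no called H3K27ac region overlapping it or lying within 5000 bp of either edge. The H3K4me1 list held 31950 regions, and 9590 of them (30.02%, 95% interval 29.5% to 30.5%) met this rule. They are called far regions below. The other regions were split into 14431 that overlapped an H3K27ac region and 7929 that lay beside one, within 5000 bp and without overlap.

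The chromatin immunoprecipitation sequencing (ChIP-seq) study compared binding of EHF with H3K4me1 and H3K27ac in these cells. EHF (Ets homologous factor) is a member of the ETS family of transcription factors, found in epithelia. It was profiled in 2 replicate libraries called against 1 input DNA library. Each histone mark had 1 library, and both marks were called against a further input. All libraries came from Calu-3 cells grown in low-glucose DMEM with serum, with no other treatment named in the labels. Whether the EHF libraries came from separate cultures is not given in the sources used here.

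H3K4me1 is the mono-methylation of lysine on histone H3 laid down at enhancers, mainly by the KMT2C and KMT2D methyltransferases. H3K27ac, deposited by the acetyltransferases EP300 and CREBBP, marks enhancers and promoters that are active. An enhancer that carries H3K4me1 without H3K27ac is commonly called primed: transcription factors have opened or marked it, but it is not driving transcription at that time. The lists cannot show which far regions are enhancers, because neither other marks nor expression was measured in them, and no gene annotation or sequence of the build hg19 was used here.

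The nature of the score and of the calls bears on every value. The deposited score of a region is the number of its tags per 10000000 tags of the library, rounded by the authors. A missing H3K27ac region means only that no 500 bp window there passed the caller's thresholds. The H3K27ac library was the deeper one, with 21426939 tags against 12989646 for H3K4me1, and its window threshold of 17 tags corresponds to 7.93 on the score scale. The H3K4me1 threshold of 13 tags corresponds to 10.008, although scores down to 8 occur in the list, so that this conversion is approximate. Shares carry exact (Clopper-Pearson) 95% intervals and rates exact Poisson ones, which cover counting error only, since neighbouring regions and amplified tags are not independent.

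Far regions were spread over a wide range of distances from H3K27ac. The median distance was 20418 bp, with quartiles of 10405 and 45088 bp, and 10% of the regions lay within 6791 bp. Of all H3K4me1 regions, 4735 were 5000 to 20000 bp away, 3982 were 20000 to 100000 bp away and 873 were farther. The distances of regions outside H3K27ac formed 1 broad hump that the limit of 5000 bp cuts without a gap. The 526 regions in the first 1000 bp beyond the limit had a median width of 1 calling window (501 bp) and a median score of 12. The 667 regions in the last 1000 bp before it had the same medians.

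**Figure D1:**
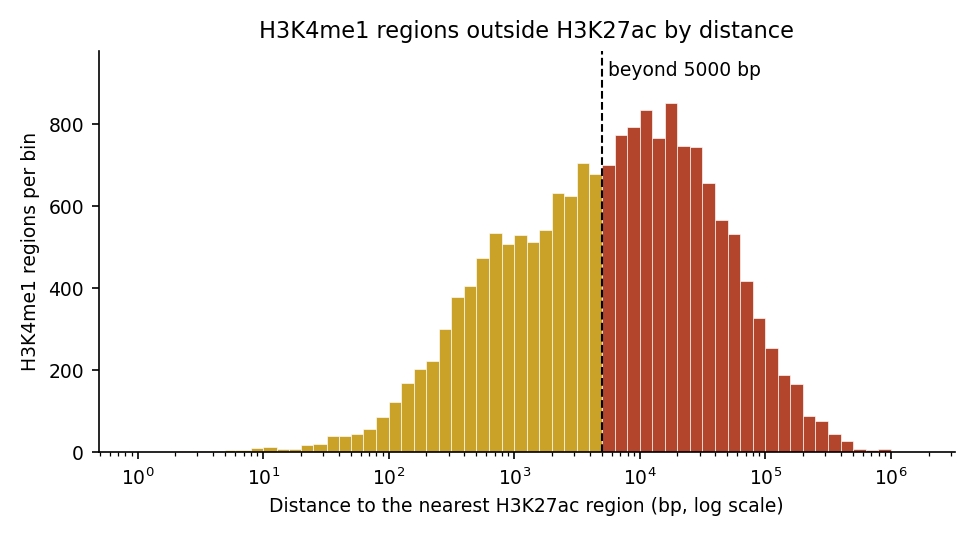
The number of H3K4me1 regions (y axis) by distance to the nearest H3K27ac region (x axis, bp, log scale), for the regions that do not overlap H3K27ac. The dashed line is the limit of 5000 bp, and the 9590 far regions are the bars to its right.

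Most far regions were as narrow as the caller allows. A single calling window, 501 bp in the list, made up 6163 of the 9590 far regions, or 64.3% (95% interval 63.3% to 65.2%). The share was 60.2% in the regions beside H3K27ac and 42.3% in the overlapping ones, with 53.3% over the whole list. A width of at least 1000 bp was reached by 768 far regions (8.01%), 9.96% of those beside H3K27ac and 22.3% of the overlapping ones. At least 2000 bp was reached by 64 far regions (0.667%), against 4.52% of the overlapping ones and 2.54% of the whole list. The rule used these positions, and a wider region meets H3K27ac more easily, so widths and scores are a description without a test.

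The scores of far regions lay close to the calling threshold. Their median was 12, with quartiles of 10 and 16, against a median of 13 beside H3K27ac and 16 in the overlapping regions. A score of 10 or less was found in 2651 far regions (27.6%) and in 14.1% of the overlapping ones. A score of 30 or more was found in 502 far regions (5.23%) and in 17.4% of the overlapping ones. Per kb the classes were nearly alike. The median score per kb was 22.0 in far regions, 22.5 beside H3K27ac and 24.0 in overlapping regions. In single-window regions the median score was 11 in far and 12 in overlapping regions. Among regions of 2000 bp or more it was 53 and 65. Together the far regions covered 6.11 Mb, which was 25.9% of the H3K4me1 bases, and held 24.8% of the summed score. Inside the class, single windows were more common at larger distances, while the median score stayed the same. The share of single windows was 62.4% at 5000 to 20000 bp, 65.1% at 20000 to 100000 bp and 70.3% beyond that. The median score was 12 in each, and the upper quartile was 17, 16 and 15.

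**Figure D2:**
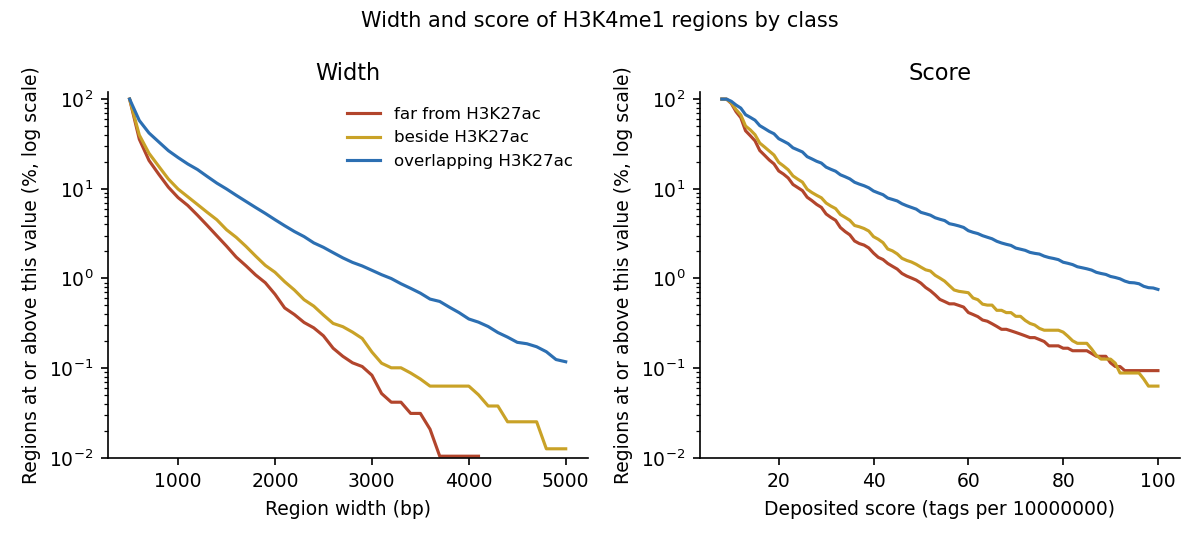
The share of regions (y axis, %, log scale) that reach a given width (left, bp) or deposited score (right, tags per 10000000) or more, for far regions and for those beside and overlapping H3K27ac. At 2000 bp the curve of far regions is at 0.667% and that of overlapping regions at 4.52%.

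A small number of far regions were broad, and these stood out from the rest of the class. The widest lay on chromosome 16 at 89538352 to 89542497. It measured 4146 bp, had a score of 106 and was 12308 bp from H3K27ac. The next was a region of 3693 bp on chromosome 22 at 25562073 to 25565765, with a score of 92. The third, on chromosome 2 at 68417687 to 68421212, measured 3526 bp and scored 89. The region of 3357 bp on chromosome 5 at 131108000 to 131111356 scored 90. On chromosome 3, the regions at 187902347 to 187905455 and at 184282461 to 184285501 were 3109 and 3041 bp wide, with scores of 112 and 106. The region of 3084 bp on chromosome 8 at 131773032 to 131776115 scored 132 and was the most isolated of the 10 widest, 148006 bp from H3K27ac. The other 3 of the 10 widest, on chromosomes 1, 12 and 8, were 2910 to 3009 bp wide. An EHF peak was called within 500 bp of 1 of the 10: a replicate 2 peak inside the chromosome 3 region at 187902347. Among far regions of 1000 bp or more, 1.30% had a replicate 1 peak within 500 bp and 2.34% a replicate 2 peak. For regions of that width overlapping H3K27ac, where peaks in H3K27ac also count, the shares were 3.57% and 10.3%.

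Of the 10 far regions with the highest scores, 4 lay on chromosome 3, 2 on chromosome 8 and 2 on chromosome 17. The first was a region of only 676 bp on chromosome 17 at 37818990 to 37819665, with a score of 470, or 695 per kb. The second, at 38486807 to 38488360 on the same chromosome, scored 140, or 90.1 per kb. Both lie in a stretch of chromosome 17 from 37500001 to 39000000 with high EHF replicate 2 scores. Its limits were set from those scores: bins of 0.5 Mb were joined where their median EHF replicate 2 score reached 2 times the median of that list. The stretch held 3 far regions, with scores of 50 to 470 and a median of 99.8 per kb, against 22.0 per kb for far regions on the rest of chromosome 17. Elsewhere in the genome no far region scored above 132. DNA copy number was not measured, and its part in these scores was not tested.

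The far regions most distant from H3K27ac were plain single windows. The most distant, on chromosome 9 at 68412586 to 68413086, had a score of 15. It was 1373280 bp from H3K27ac and 2943249 bp from the next H3K4me1 region. Chromosome 3 held the next, at 163917461 to 163917961, which was 1258913 bp from H3K27ac and scored 10, and also the fourth, at 164203923 to 164204423, with a score of 13. The other 2 of the first 5, with scores of 12 and 17, were at 194502931 to 194503431 (chromosome 1) and 84340321 to 84340821 (chromosome 12). None of these 5 had an EHF peak within 500 bp, but only 2.12% of all far regions had one in either replicate.

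Far regions were mostly solitary. Another H3K4me1 region of any class lay within 5000 bp of 2275 of them (23.7%, 95% interval 22.9% to 24.6%), against 46.0% of all H3K4me1 regions. The share was 53.9% beside H3K27ac and 56.4% in the overlapping class. The median distance to the nearest other H3K4me1 region was 14747 bp for far and 3599 bp for overlapping regions. The rule bears on this, because it keeps neighbourhoods with H3K27ac out of the class. Counting only neighbours of the same class, 20.3% of far regions, 25.9% of those beside H3K27ac and 44.8% of overlapping regions had one within 5000 bp. The classes differ in size, which also bears on this count.

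When far regions within 5000 bp of each other were chained, they formed 8503 runs, of which 7644 held a single region. Runs of 2 numbered 697 and runs of 3 numbered 119. Another 43 runs held 4 to 7 regions, and together these 43 contained 195 regions, or 2.03% of the class. In overlapping regions, by comparison, runs of 4 or more contained 9.13% of the class. Chromosomes 2, 12, 7 and 1 each held 1 run of 7 regions, at 55203430 to 55225120, 19305264 to 19324780, 50833905 to 50852333 and 198235917 to 198253112. Their summed scores were 134, 139, 194 and 103. The first spanned 21691 bp, of which 6239 bp were called. The runs of 6 were on chromosome 5 at 60745126 to 60764342 and on chromosome 6 at 163859798 to 163875820. In the 10 largest runs, ranked by number of regions and then by span (4 of the 7 runs of 5 are among them), EHF replicate 1 had a peak within 500 bp of the span of 1 run and replicate 2 of 3 runs. The run of 5 on chromosome 3 at 135890502 to 135907397 had a peak in each replicate. Of far regions taken singly, 0.490% and 1.77% had a peak within 500 bp, but a run has more room for a peak.

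On a scale of 1 Mb, far regions were found in the same parts of the genome as the other marks. Far regions occurred in 2083 of the 2635 bins that held any mark region. The number of far regions per bin followed the number of H3K27ac regions with a Spearman rho of 0.52, and that of H3K4me1 regions overlapping H3K27ac with a rho of 0.61. These are descriptions over 2635 bins, which share the libraries, the mappable length and the copy number of the line. Only 39 far regions lay in a bin with no H3K27ac region. The 8 bins with 20 or more far regions contained a median of 21.5 H3K27ac regions, against 11 in all bins. The richest were 198000001 to 199000000 on chromosome 1 and 142000001 to 143000000 on chromosome 5, with 28 far regions each. The bin at 171000001 to 172000000 on chromosome 3 held 24 far regions beside 34 H3K27ac regions.

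The share of H3K4me1 regions that were far differed between chromosomes. It was highest on chromosome 7 at 34.9% (624 of 1789, 95% interval 32.7% to 37.1%), followed by chromosome 5 at 33.6% and chromosome 3 at 32.8% (945 of 2880, 31.1% to 34.6%). The intervals of these 3 overlap. It was lowest on chromosome 21, at 13.7% (29 of 212, 9.36% to 19.1%), and next on chromosome 9, at 22.3% (184 of 825, 19.5% to 25.3%). On chromosome 19 it was 23.3% (133 of 571, 19.9% to 26.98%). Relative to H3K27ac, chromosome 5 held 43.9 far regions per 100 H3K27ac regions and chromosome 21 held 6.92. On chromosomes 4, 9, 13 and X the median score per kb of far regions was 19.96, and on chromosomes 3, 7 and 20 it was 24.0. This was not particular to far regions. For overlapping regions the medians were 20.5, 21.2, 20.04 and 19.96 on chromosomes 4, 9, 13 and X. They were 23.95, 25.2 and 29.3 on chromosomes 3, 7 and 20. The number of H3K4me1 regions called ranged from 202 on chromosome 13 to 3192 on chromosome 2. Whether copy number takes part in these differences was not tested.

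**Figure D3:**
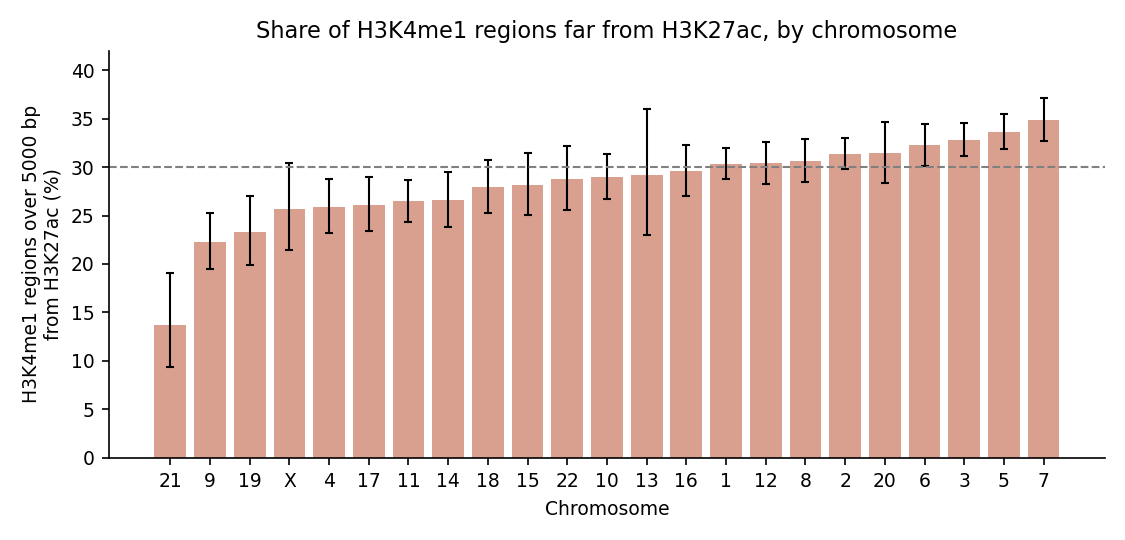
The share of each chromosome's H3K4me1 regions that lay over 5000 bp from H3K27ac (y axis, %), ordered from the lowest to the highest share, with exact 95% intervals as error bars. The dashed line is the share over all chromosomes, 30.02%, and the bars run from 13.7% on chromosome 21 to 34.9% on chromosome 7.

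EHF peaks were rare at far regions in both replicates. The rule did not use them but bears on them, because a peak in H3K27ac cannot lie within 500 bp of a far region. Of all EHF peaks, 60.8% of replicate 1 and 63.8% of replicate 2 lay in H3K27ac. An EHF peak of replicate 1 overlapped 22 far regions (0.229%, 95% interval 0.144% to 0.347%), against 0.485% of all H3K4me1 regions. A replicate 2 peak overlapped 64 far regions (0.667%, 0.514% to 0.851%), against 1.29% of all. Within 500 bp the counts rose to 47 far regions (0.490%, 0.360% to 0.651%) for replicate 1, with 1.47% over the whole list, and to 170 (1.77%, 1.52% to 2.06%) for replicate 2, with 4.3% over the whole list. In either replicate, an EHF peak overlapped 81 far regions (0.845%), against 1.57% of all H3K4me1 regions. Shares of regions with a peak inside count any such overlap, and 0.709% of far regions held a peak centre. An EHF peak of either replicate lay within 500 bp of 203 far regions (2.12%), against 4.9% of all. In both replicates the far regions lay below the list as a whole, and the intervals of far and overlapping regions did not meet.

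The contrast was with the regions that overlap H3K27ac. Of these, 384 (2.66%, 95% interval 2.40% to 2.94%) had a replicate 1 peak within 500 bp and 1075 (7.45%, 7.03% to 7.89%) a replicate 2 peak. These shares were 5.43 and 4.20 times those of far regions. The rule favours this order, because peaks in H3K27ac can count for overlapping regions and not for far ones. Counting each peak by its nearest H3K4me1 region, 342 of 360 replicate 1 peaks within 500 bp of overlapping regions (95%) lay in H3K27ac. For replicate 2 it was 948 of 1022 (92.8%). The regions beside H3K27ac, with 0.504% and 1.64%, were within the intervals of the far ones at this margin. Within 2000 bp they were above them, at 1.77% and 6.53% against 0.740% and 2.52% of far regions, where the wider margin can reach into the H3K27ac region itself. Among regions outside H3K27ac the shares within 500 bp showed no trend with distance beyond their intervals. At 5000 to 20000 bp from H3K27ac the shares were 0.444% and 1.88%, at 20000 to 100000 bp 0.477% and 1.56%, and beyond 100000 bp 0.802% (0.323% to 1.65%, 7 of 873 regions) and 2.18% (1.32% to 3.38%, 19 regions). With 2 EHF libraries and 1 library of each mark there is no replicated design to test, and regions are not replicates. Both replicates gave the same order, which the rule favours in each.

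**Figure D4:**
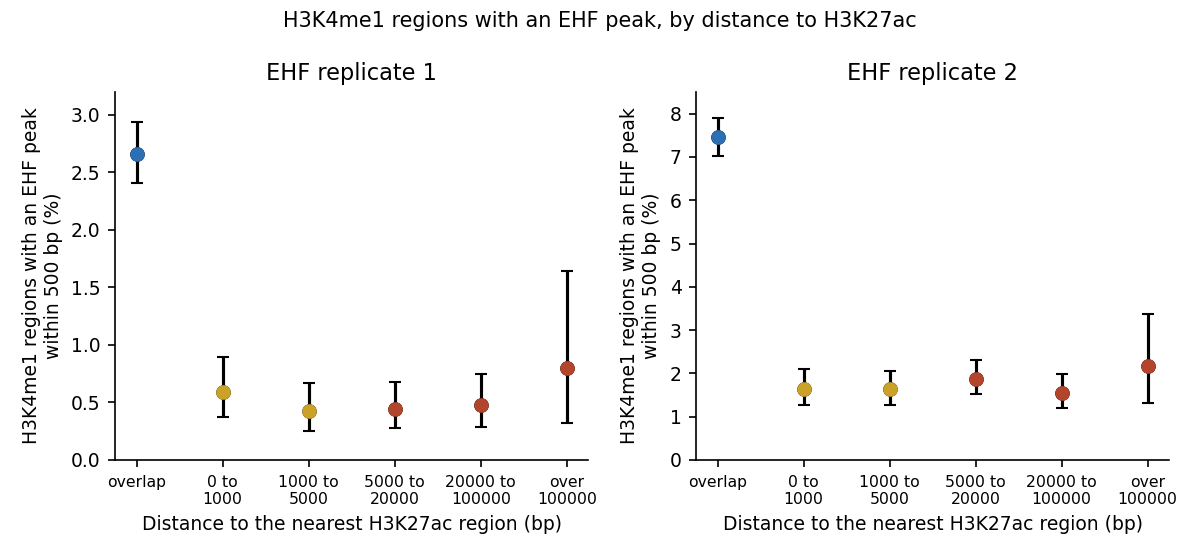
The share of H3K4me1 regions with an EHF peak within 500 bp (y axis, %) by distance to the nearest H3K27ac region (x axis, bp), for EHF replicate 1 (left) and replicate 2 (right), with exact 95% intervals. Overlapping regions are at 2.66% and 7.45%, and every other distance class is at or below 0.802% and 2.18%.

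The lower share at far regions was also seen at equal width and at like scores, but this match does not remove the effect of the rule. In each class below, peaks in H3K27ac can count for overlapping regions and not for far ones. In single-window regions, 27 of 6163 far regions (0.438%) and 141 of 6099 overlapping ones (2.31%) had a replicate 1 peak within 500 bp. For replicate 2 the shares were 1.46% and 6.10%. In single windows with a score of 10 or 11 they were 0.426% and 1.68% for replicate 1, and 1.24% and 4.34% for replicate 2. In single windows scoring 15 or more they were 1.35% and 3.72%, and 3.89% and 11.3%. Overlapping regions were 2.75 to 8.15 times as often near an EHF peak over the 3 score classes compared, the third being scores of 12 to 14. Within the far class, too, single windows of 15 or more had the higher shares, on 8 and 23 regions. Far regions with an EHF peak within 500 bp in either replicate had a median score of 15 and those without one a median of 12, and 52.7% and 64.5% of them were single windows. A close neighbour was as common in both, with another H3K4me1 region within 5000 bp of 23.6% and 23.7%.

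EHF peaks did gather at far regions relative to the surrounding sequence. Inside far regions there were 18 peak centres of replicate 1, or 2.95 per Mb (95% interval 1.75 to 4.66), and 54 of replicate 2, or 8.84 per Mb (6.64 to 11.5). Over all bases outside H3K27ac, taking the genome size of 2000000000 bp set in the file headers, the rates were 0.331 and 1.03 per Mb. In the 500 bp on either side of far regions the rates were 2.84 and 10.1 per Mb. At 2000 to 5000 bp they had fallen to 0.503 (0.326 to 0.743) and 1.29 (0.992 to 1.64) per Mb, near the rate outside H3K27ac. The rates inside far regions and in the nearest 500 bp were above that level in both replicates, with intervals that did not reach it. At 500 to 1000 bp this held for replicate 2, at 4.39 per Mb (3.14 to 5.98), and not for replicate 1, at 0.549 (0.178 to 1.28). At 1000 to 2000 bp the rates were 0.910 (0.520 to 1.48) and 1.82 (1.25 to 2.57). The rule keeps H3K27ac out of all these flanks, so the rates around far regions are of sequence without called H3K27ac. Mappability and chromatin openness were not measured, and their part in this was not tested.

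The place of the EHF peak relative to the region was compared between classes with unlike flanks. The rule keeps called H3K27ac out of the flanks of far regions, whereas those of overlapping regions can lie in it. Around overlapping regions the rate of EHF centres in the first 500 bp outside was 2.34 times that inside for replicate 1 (95% interval 1.83 to 2.997) and 2.68 times for replicate 2 (2.32 to 3.12). Around far regions the ratios were 0.963 (0.511 to 1.86) and 1.14 (0.810 to 1.62), so that no preference for the first 500 bp as a whole was detectable. In replicate 2 the intervals of the 2 classes do not meet, and in replicate 1 they overlap slightly. Regions beside H3K27ac gave 1.58 (0.777 to 3.40) and 1.62 (1.08 to 2.48). Short gaps between neighbouring far regions were examined separately. Of 300 gaps of up to 1000 bp between far regions, 0 held a replicate 1 centre (upper exact limit 1.22%), and 8 held a replicate 2 centre (2.67%, 1.16% to 5.19%). Per base, the 8 replicate 2 centres gave 36.6 per Mb of these gaps (15.8 to 72.1), above the 8.84 per Mb inside far regions. Between overlapping regions 3.01% and 8.37% of 1230 gaps held a centre, or 41.0 and 115 per Mb.

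**Figure D5:**
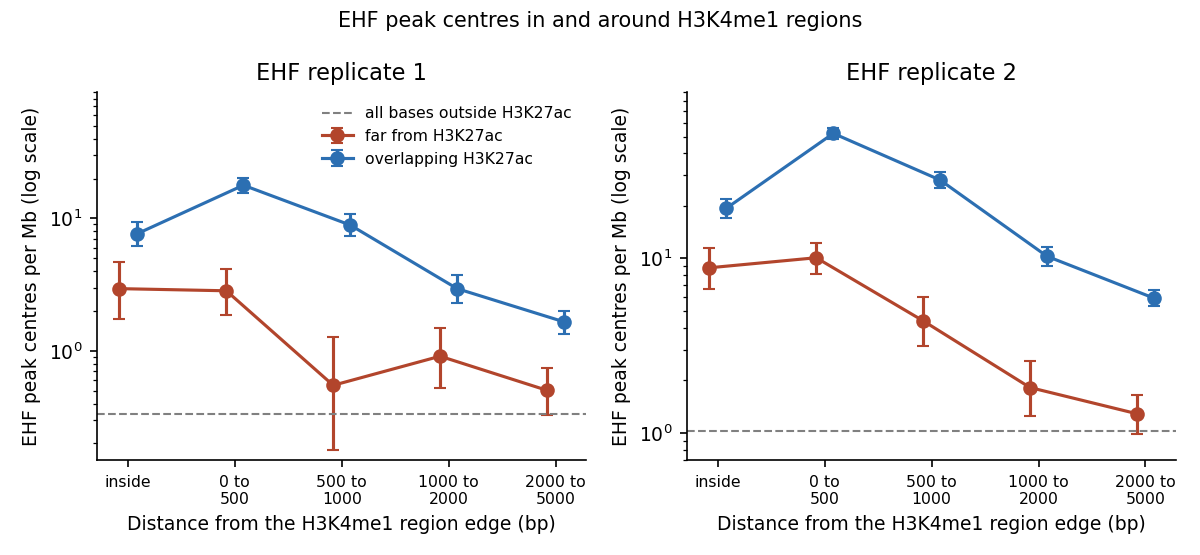
EHF peak centres per Mb (y axis, log scale) inside H3K4me1 regions and in steps of distance from their edges (x axis, bp), for far regions and regions overlapping H3K27ac, with exact Poisson 95% intervals. The dashed line is the rate over all bases outside H3K27ac, 0.331 per Mb in replicate 1 (left) and 1.03 in replicate 2 (right). The far regions are at 2.95 and 8.84 per Mb inside and at 0.503 and 1.29 at 2000 to 5000 bp.

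EHF peaks at far regions had the median scores of their lists and recurred less often than those at overlapping regions. Counting each peak by its nearest H3K4me1 region, 47 replicate 1 peaks (3.06% of that list) and 164 replicate 2 peaks (3.14%) lay within 500 bp of a far region. Their scores, per the EHF lists, reached at most 14 in replicate 1 (median 9) and 26 in replicate 2 (median 12). The medians of all peaks were also 9 and 12. At overlapping regions the medians were 10 and 12 and the highest scores 29 and 156. Of the 47 replicate 1 peaks, 13 overlapped a replicate 2 peak (27.7%, 95% interval 15.6% to 42.6%), against 217 of 360 at overlapping regions (60.3%, 55.0% to 65.4%) and 49.97% of all replicate 1 peaks. Of the 164 replicate 2 peaks, 13 recurred (7.93%, 4.29% to 13.2%), against 217 of 1022 (21.2%, 18.8% to 23.9%) and 14.7% of all replicate 2 peaks. Beside H3K27ac the shares were 42.5% (27.04% to 59.1%) and 13.4% (8.00% to 20.6%), with intervals that overlap those of far regions. Among replicate 1 peaks scoring 9 to 11 the shares were 7 of 23 (30.4%, 13.2% to 52.9%) and 95 of 162 (58.6%, 50.6% to 66.3%). Among replicate 2 peaks scoring 15 or more they were 3 of 34 (8.82%, 1.86% to 23.7%) and 130 of 336 (38.7%, 33.5% to 44.1%). In each of the 6 score bands compared, 3 per replicate, the share was lower at far regions. The intervals were apart only in the band of replicate 2 peaks scoring 15 or more. A recurring peak is counted from both lists, so the shares of the 2 replicates are not independent of each other.

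A peak of each replicate overlapped 5 far regions (0.0521%), against 66 of all H3K4me1 regions (0.207%) and 57 of those overlapping H3K27ac (0.395%). In each of the 5 the peaks overlapped each other. The strongest H3K4me1 region among them was on chromosome 3 at 171804508 to 171806647, with a width of 2140 bp, a score of 85 and a distance of 8162 bp to H3K27ac. Its EHF peaks, at 171805761 to 171805911 in replicate 1 and 171805818 to 171805942 in replicate 2, scored 13 and 14. Another chromosome 3 region, at 182824496 to 182826506, was 2011 bp wide with a score of 62. Its peaks, at 182825751 to 182825901 and 182825778 to 182825902, scored 11 and 25, the latter the second highest replicate 2 score inside a far region. A region of 1179 bp on chromosome 10 at 63771336 to 63772514 scored 28, with EHF peaks of 8 and 14 centred 142 and 163 bp from its lower edge. The other 2 were single windows with the peaks at an edge. One, on chromosome 2 at 10631049 to 10631549, had EHF scores of 9 and 10. The other, on chromosome 8 at 27182514 to 27183014, had scores of 8 and 13. Of the 5 regions, 3 were wider than 1000 bp, against 8.01% of far regions, although a wider region also has more room for a peak.

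Among the other high EHF peaks in far regions, most had no counterpart in the second list. Over the whole lists, 49.97% of replicate 1 peaks and 14.7% of replicate 2 peaks had one, so a missing counterpart was common everywhere in replicate 2. The highest of replicate 1 was on chromosome 20 at 52908870 to 52909020, with a score of 14. It was centred 19 bp from the middle of a region of 769 bp and had no counterpart in replicate 2. The highest of replicate 2 was on chromosome 19 at 34950635 to 34950759, with a score of 26. It lay 15 bp from the middle of a region of 1878 bp and 48 in score, and had no counterpart in replicate 1. The third of replicate 2, on chromosome 12 at 109022296 to 109022420, scored 23 at the edge of a region of 655 bp. A replicate 2 peak of 20 on chromosome 10 at 47022671 to 47022795 overlapped the edge of a single window with a score of 33. On chromosome 5 a replicate 2 peak of 19 at 78597293 to 78597417 met a single window by its last base and was also found in replicate 1.

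Chromosome 3 held more EHF-bearing far regions than its share of the class. It contained 9.85% of the far regions and 29.8% of those with a replicate 1 peak within 500 bp (14 of 47), and 18.8% of those with a replicate 2 peak (32 of 170). The chromosome also held 14.4% and 12.002% of all peaks of the 2 EHF lists. In either replicate, 40 of its 945 far regions had an EHF peak (4.23%, 95% interval 3.04% to 5.72%). Chromosome 20 was similar, with 12 of 273 (4.40%, 2.29% to 7.55%). On chromosome 4 it was 0 of 255 (upper exact limit 1.44%). Without chromosome 3 the shares of far regions near a peak were 0.382% and 1.60%, and overlapping regions were 6.88 and 4.57 times as often near one. The rule bears on these ratios as well.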

How the data were processed

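The 4 interval lists deposited for Calu-3 were used. The build was hg19 and the tools included HOMER 1.2 and Bowtie 1.0.0, per the submitters' processing notes. Per the file headers, each list was called by findPeaks from 1 library, at a false discovery rate of 0.01 and at least 4-fold over input. Mark windows of 500 bp were stitched. The deposited score is a tag count scaled by the authors to 10000000 tags and rounded. It was used only within a list.

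Distances ran from edge to edge, and overlap meant at least 1 bp. Starts were converted to count from 1. Intervals were handled with pandas 2.3.3 and numpy 2.4.6 in Python 3.11.15, and limits came from scipy 1.17.1. The distance code was tested on 2000 simulated regions and recovered the class of all 2000. No test over regions was made. The members, the lists and the named items were chosen with earlier results of these data known. Named were the 10 widest, 10 highest-scoring and 5 most distant far regions, the 10 largest runs, the far regions with both EHF replicates and the top 10 EHF peaks per replicate, of which the most informative are printed. The alternatives are in the closing section. Gene names and sequences were left out, since no hg19 genome or annotation was used here. Reads and inputs were not analysed here. Tag depth was 10176290 and 8418631 for the EHF libraries.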

Additional observations from a re-analysis of the deposited data

How the results depend on the processing

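Of 47 alternative values, 22 stayed within the main value's 95% interval (for counts, within 1.5 times) and 25 did not. The alternative without chromosome 3 was chosen after seeing the data. The median width stayed at 501 bp and the median score per kb at 22.0 under each distance limit run and without the chromosome 17 stretch. These medians are among the 22 values but had little room to move, because most far regions were single windows with whole-number scores. The number of far regions was 4855 with a limit of 20000 bp, 15932 when only H3K27ac regions at or above the median score per kb counted, and 4206 when only such H3K4me1 regions counted. In these last 2 cases 2.71% and 2.95% of far regions had an EHF peak within 500 bp, against 2.12% in the main setting, and with stricter H3K4me1 regions 1.14% had one inside, against 0.845%. In single windows the shares were 1.74% and 0.535%. With EHF margins of 0, 2000 and 5000 bp the share was 0.845%, 3.04% and 4.23%. Without EHF replicate 1 or 2 the share within 500 bp ranged from 0.490% to 1.77%, the share inside from 0.229% to 0.667%, and the rate from 2.95 to 8.84 peaks per Mb, against 11.8 with both. For sites found in both replicates these were 0.136%, 0.0730% and 0.819 per Mb. The rate of 11.8 adds the peaks of both lists, so leaving out a list can only lower it, and the shares cannot rise either. With EHF peaks at or above the median score the shares were 1.13% and 0.438%. A neighbouring H3K4me1 region was found for 13.2%, 39.8% and 58.0% at 2000, 10000 and 20000 bp, against 23.7%. Fewer or more intervals counted in each of these alternatives. A score of 10 or less was found in 27.6% of far regions and in 20.6% of all H3K4me1 regions. How sequencing depth bears on the class was not tested. The 47 peaks of EHF replicate 1 within 500 bp of far regions limit the precision of its shares. No paired analysis was possible because only EHF has numbered replicates.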
